A study of Rattus norvegicus with 6 samples.

Results

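The genes described here encode the subunits of potassium channels, voltage-gated calcium channels and transient receptor potential (TRP) channels. All rows of the deposited count table were taken whose symbol begins with Kcn, Cacna, Cacnb or Cacng, or with Trpc, Trpv or Trpm and a number. There were 143 such genes among 24005 rows. Of these, 7 had no count in any library, 57 were counted but stayed under 1 CPM (a read count scaled to a common library total) in every library, and 79 reached 1 CPM in at least 1 library and are described. The values just outside that limit were 0.858 CPM for Kcnj12, 0.902 CPM for Kcnip1 and 0.977 CPM for Trpm1, and those just inside were 1.02 CPM for Kcnk7, 1.16 CPM for Kcnk10 and 1.24 CPM for Kcnk4. The symbol rule also admits genes that are not channel subunits, of which Trpc4ap was the only one described.

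The libraries were made from polyadenylated RNA of rat common carotid arteries. The groups were 2 arteries collected 7 days and 3 collected 1 day after a clotted vessel had been reopened, and 1 normal artery that served as the control. Ferric chloride, which damages the arterial wall by oxidation, had been used to make the clots. The arteries were reopened by sonodynamic therapy, in which ultrasound activates a sensitiser, combined with what the submitters call physical-explosion therapy. Neither strain, sex, age nor the number of animals behind an artery is stated in the labels, so the p-values measure the spread between libraries, which may be technical. No group analysed here was injured without treatment or treated without injury, so the clot, its injury and the treatment cannot be told apart.

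The smooth muscle cells of an artery contract when calcium enters through voltage-gated calcium channels. Potassium channels hold the membrane at a negative voltage and keep those calcium channels closed, and TRP channels let in calcium and sodium in response to receptors, stretch, temperature or oxidants. Muscle cells that leave the contractile state after injury are known to exchange part of this set of channels. Endothelial cells and leukocytes carry potassium and TRP channels of their own, so a whole artery reports a mixture.

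Library totals lay between 30078022 and 47240013 counts. The 12 smooth muscle markers, which include Acta2 and Myh11, summed to 18998 and 19492 CPM at day 7, to 31656, 7336 and 11280 CPM in day 1 replicates 1, 2 and 3, and to 31577 CPM in the control. Of the 12, 8 were lower and 2 higher than the control in both day 7 libraries and 7 were lower in all 3 day 1 libraries, and none was at 0 in the control. The matching shares of all genes tested were 36.2%, 42.9% and 27.2%. The 12 macrophage and monocyte markers summed to 6410 and 5173 CPM at day 7, to 56.4, 6482 and 2914 CPM at day 1 and to 89.7 CPM in the control. One day 1 library, replicate 1, was unlike its group and near the control in the channel genes and in both of these sums. Over the 79 channel genes its log2(CPM + 0.1) values had a Pearson correlation of 0.927 with the control, against 0.705 and 0.836 with day 1 replicates 2 and 3, which correlated at 0.923 with each other; these are descriptions across genes, which are not independent. Over all genes tested, replicate 1 correlated at 0.951 with the control and at 0.888 and 0.923 with day 1 replicates 2 and 3. Those 2 correlated at 0.962 with each other. In other lists the library differed from the control. Its 4 erythroid markers summed to 2330 CPM, beside 1282 and 1226 CPM in day 1 replicates 2 and 3, against 237 CPM in the control, and its 12 endothelial markers to 153 CPM, against 1306 CPM in the control. Whether the library carries the right label was not tested. Where leaving it out changed a call or moved a printed fold change by over 1.5 times, the value without it is given too. The library was singled out by its likeness to the control in the channel genes, so p-values without it depend on that choice. In whole arteries, fewer cells of a type and less RNA per cell cannot be told apart.

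Promoters of 4 genes with wide differences between groups are shown for reference. Trpm8 and Kcnmb1 were higher in the control, and Trpv2 and Kcnj2 were higher in most reopened arteries. Each run is the 250 bases before the annotated start in RefSeq (rat assembly GRCr8, plus strand, chr9:96351433-96351682 for Trpm8, chr10:19061849-19062098 for Kcnmb1, chr10:47771973-47772222 for Trpv2 and chr10:96559975-96560224 for Kcnj2), in lower case with motif matches in capitals.
Trpm8: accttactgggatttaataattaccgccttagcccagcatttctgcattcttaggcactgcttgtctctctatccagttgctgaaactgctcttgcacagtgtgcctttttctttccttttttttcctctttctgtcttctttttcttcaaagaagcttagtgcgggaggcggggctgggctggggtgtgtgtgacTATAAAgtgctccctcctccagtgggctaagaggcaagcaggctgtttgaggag
Kcnmb1: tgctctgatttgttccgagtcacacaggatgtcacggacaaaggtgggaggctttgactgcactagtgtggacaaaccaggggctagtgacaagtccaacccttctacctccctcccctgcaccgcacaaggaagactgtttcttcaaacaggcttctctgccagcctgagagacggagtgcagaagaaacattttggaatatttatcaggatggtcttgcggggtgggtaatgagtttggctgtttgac
Trpv2: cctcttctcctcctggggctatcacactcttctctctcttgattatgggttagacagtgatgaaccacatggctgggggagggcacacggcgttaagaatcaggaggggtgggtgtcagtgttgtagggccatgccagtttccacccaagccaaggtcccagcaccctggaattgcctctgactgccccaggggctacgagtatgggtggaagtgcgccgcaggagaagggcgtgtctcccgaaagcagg
Kcnj2: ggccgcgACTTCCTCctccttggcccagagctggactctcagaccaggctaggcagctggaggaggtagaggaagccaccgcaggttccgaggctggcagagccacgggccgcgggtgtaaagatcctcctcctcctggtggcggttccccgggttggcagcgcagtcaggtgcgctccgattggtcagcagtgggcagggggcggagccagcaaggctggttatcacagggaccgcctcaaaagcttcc
The motifs searched on both strands were the CArG box of serum response factor, the TATAAA box, the AP-1 site spelled TGANTCA and the letters GAGGAAGT (a core bound by the myeloid factor PU.1). The capitals mark TATAAA at positions -54 to -49 of Trpm8, counted back from the start, and the reverse complement of GAGGAAGT at -243 to -236 of Kcnj2. Promoters were available for 57 of the 79 genes, 64 promoters in all. None of the 64 held a CArG box, against 1.5% of 33469 rat promoters. TATAAA stood in 2 of the 64, those of Trpm8 and Cacna1s, against 12.9% of all. TGANTCA stood in 1, that of Trpv3, against 6.34% of all, and GAGGAAGT in 2, those of Kcnj14 and Kcnj2, against 2.04% of all. A match is a description of letters and not a site of binding.

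The 79 genes divided into those lower and those higher than in the control. At day 7, 40 genes were lower in both libraries than in the control and 29 were higher in both, and 10 had day 7 libraries on either side. Over all 15860 genes tested the shares were 36.2% lower and 42.9% higher, so that the channel genes had more lower members (50.6%) and fewer higher ones (36.7%). At day 1, 34 genes were lower in all 3 libraries and 18 higher in all 3, against 27.2% and 27.5% of all genes. Without day 1 replicate 1 the day 1 counts were 41 lower and 28 higher, against 38.8% and 40.7%. On the deposited FPKM scale 38 genes were lower and 31 higher in both day 7 libraries, against 29.2% and 49.7% of all genes, and 35 were lower and 17 higher in all day 1 libraries, against 27.1% and 26.5%. The median log2 fold change of the 79 genes was -0.31 at day 7 and -0.17 at day 1, against 0.09 and 0.06 over all genes tested.

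**Figure D1:**
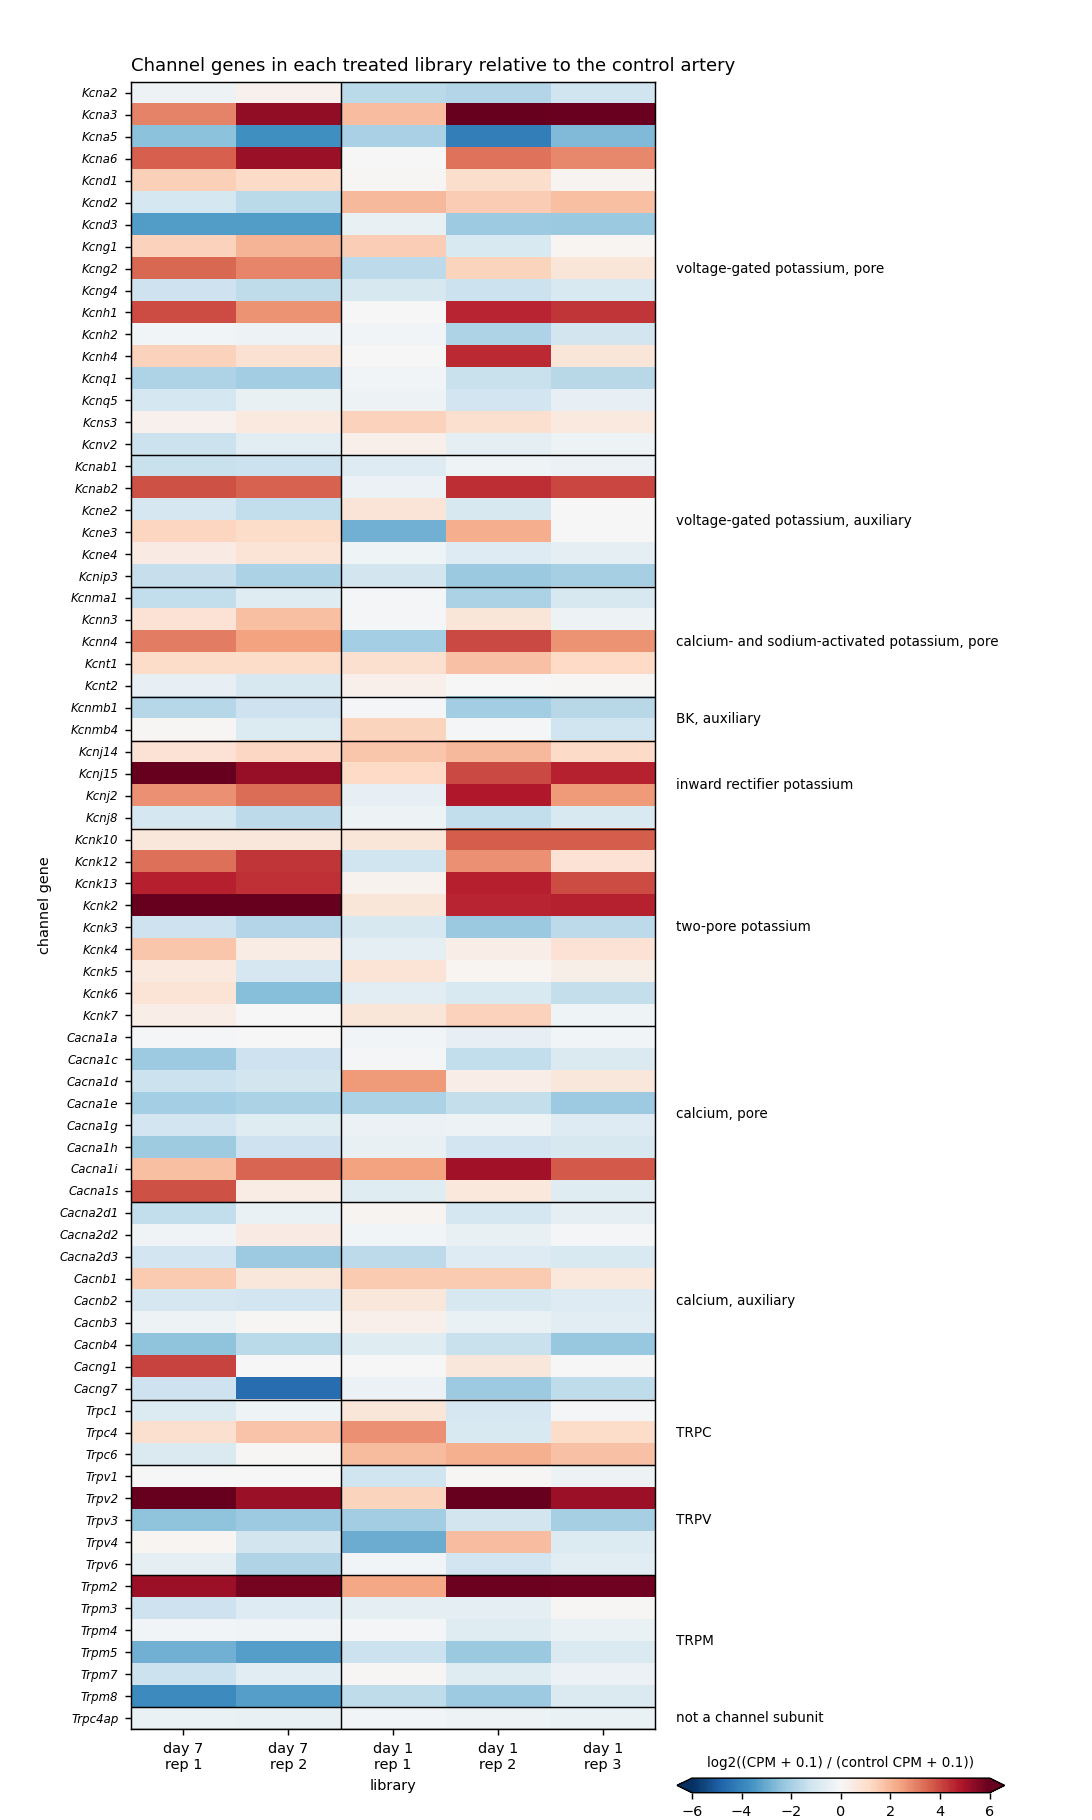
Each row is a described channel gene, grouped by family, and each column is 1 library, with day 7 left of day 1; colour gives log2 of (CPM + 0.1) over the same quantity in the control, red for higher and blue for lower. The pale column of day 1 replicate 1 and the blue rows of Kcnd3 and Trpm8 at day 7 stand out, as do the red rows of Trpv2, Trpm2 and Kcnk13 outside day 1 replicate 1.

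None of the 79 genes passed the main test. edgeR's quasi-likelihood test with Benjamini-Hochberg adjustment over all genes called 0 of the 79 genes and 0% of all genes in each of the 3 comparisons, and limma-voom also called 0. The adjusted p of the 79 genes began at 0.477 for day 7 against control and at 0.514 for day 1 against control. At an unadjusted p under 0.05, 22 of the 79 genes differed at day 7 from the control (27.8%, against 10.1% of all genes), 18 of them lower and 4 higher. The background was 3.97% for lower and 6.12% for higher. For day 1 against control the count was 18 (22.8%, against 8.66% of all genes), 9 in each direction, with a background of 2.53% lower and 6.13% higher. In the same fit without day 1 replicate 1, edgeR called 10 of the 79 genes at day 7 and 14 at day 1, against 4.39% and 5.61% of all genes. That library was chosen for its likeness to the control in these genes, so these calls hold only under that choice. Over all genes, 602 of 693 calls at day 7 and 763 of 885 at day 1 were higher in that fit. The 10 at day 7 were 6 higher genes, Trpm2, Kcnk2, Kcnj15, Trpv2, Kcnk13 and Kcnab2, and 4 lower genes, with Trpm8, Kcnd3 and Kcnq1 among them. The 14 at day 1 were the same 6 higher genes with Kcnh1 and Kcnn4, and 6 lower genes, with Kcnmb1, Kcnk3, Kcnip3, Kcnd3 and Kcnq1 among them. DESeq2 on all libraries called 12 and 10 of the 79 genes, against 5.4% and 5.57% of all genes, 6 of the 12 and 8 of the 10 being higher. Over all genes, 618 of 790 and 706 of 815 DESeq2 calls were higher. Trpm2, Kcnk2, Kcnj15, Trpv2 and Kcna3 were among the higher calls of DESeq2 at both times. The fold changes below are from the 6-library fit and are given with their standard error.

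The large-conductance calcium-activated potassium channel answers a local calcium rise by hyperpolarising the muscle cell. Its muscle-type auxiliary subunit Kcnmb1, which raises its calcium sensitivity, was the channel gene with the highest level per gene length in the control, at 140 FPKM (a level scaled by gene length and library total). Kcnmb1 stood at 243 and 328 CPM in the day 7 libraries and at 743, 182 and 248 CPM in the day 1 libraries, against 784 CPM in the control. Its pore gene Kcnma1 stood at 37.9 and 63.5 CPM at day 7 and at 98.8, 27.7 and 54.8 CPM at day 1, against 105 CPM in the control. Every reopened artery was lower than the control for both genes, with day 1 replicate 1 closest to it. For Kcnmb1 the log2 fold change was -1.46 ± 0.85 at day 7 and -1.0 ± 0.79 at day 1 (SE; edgeR adjusted p = 0.514 and 0.683). Without day 1 replicate 1 the day 1 value was -1.87, with an edgeR adjusted p of 0.0364. The FPKM ratio of Kcnmb1 to Kcnma1 was 6.48 and 5.22 at day 7 and 7.60, 6.63 and 4.58 at day 1, against 7.53 in the control, so the auxiliary gene remained above the pore gene in every library.

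The vascular ATP-sensitive channel couples the metabolic state to the membrane voltage. Its pore gene Kcnj8 read 41.3 and 28.2 CPM at day 7 and 69.0, 30.7 and 45.4 CPM at day 1, against 84.7 CPM in the control. Abcc9, the sulphonylurea receptor that pairs with it, read 184 and 243 CPM at day 7 and 533, 329 and 386 CPM at day 1, against 501 CPM in the control. Kcnj8 was lower than the control in all 5 libraries, with a log2 fold change of -1.29 ± 0.50 at day 7 and -0.81 ± 0.47 at day 1 (edgeR adjusted p = 0.477 and 0.61). The acid-sensitive leak channel Kcnk3, which sets the resting voltage, had 47.6 and 33.3 CPM at day 7 and 57.8, 24.2 and 37.9 CPM at day 1, against 113 CPM in the control. Day 1 replicate 1, which was close to the control for Kcnmb1 and Kcnma1, was here near the other reopened arteries. The Kcnk3 log2 fold change was -1.48 ± 0.52 at day 7 and -1.5 ± 0.47 at day 1, with edgeR adjusted p of 0.477 and 0.564. The day 1 value without day 1 replicate 1 was -1.87 ± 0.37 (edgeR adjusted p = 0.0429), and the adjusted p at day 7 was 0.0886. Kcnk3 and Kcnj8 were the leading potassium pore genes of the control per gene length, at 24.2% and 23.5% of the summed FPKM of 38 pore genes.

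**Figure D2:**
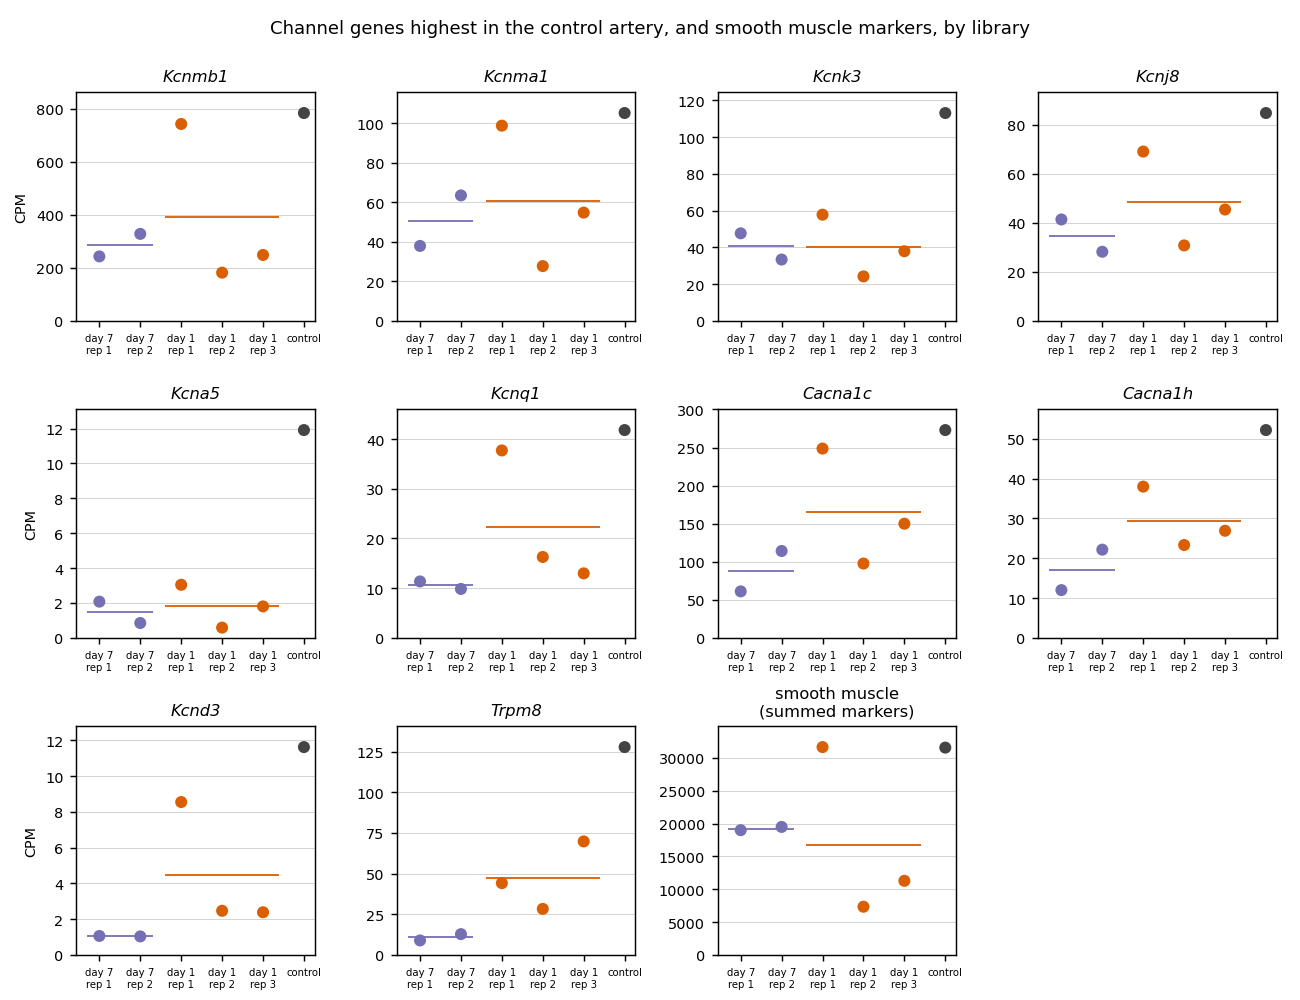
Points are libraries, with CPM on the vertical axis and the libraries of day 7, day 1 and the control from left to right; bars mark the mean of a group, and the last panel sums the 12 smooth muscle markers. In each gene panel the control point lies highest, and for Kcnmb1, Kcnma1 and Cacna1c day 1 replicate 1 lies next to it.

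Voltage-gated potassium channels open on depolarisation and oppose calcium entry. Kcna5 is a pore gene well known from arterial muscle. Kcna5 stood at 2.07 and 0.850 CPM at day 7 and at 3.04, 0.586 and 1.80 CPM at day 1, against 11.9 CPM in the control. It was lower in all 5 reopened arteries, day 1 replicate 1 included. Kcna5 had a log2 fold change of -3.02 ± 1.01 at day 7 and -2.72 ± 0.89 at day 1, with edgeR adjusted p of 0.477 and 0.564. Day 1 replicates 2 and 3 alone gave -3.32 ± 0.82 (edgeR adjusted p = 0.0781).

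Kcnd3, a pore gene of the fast transient outward current, had 1.06 and 1.03 CPM at day 7 and 8.55, 2.47 and 2.38 CPM at day 1, against 11.6 CPM in the control. The day 7 log2 fold change was -3.47 ± 0.89 (edgeR adjusted p = 0.477). In the fit without day 1 replicate 1 it was -3.47 ± 0.48 (edgeR adjusted p = 0.016), and the day 1 value was -2.26 ± 0.47 (edgeR adjusted p = 0.048), against -1.38 ± 0.80 (edgeR adjusted p = 0.608) with all libraries. Kcnip3, a calcium-binding protein that associates with this channel family and also acts as a transcriptional repressor, had 8.98 and 6.23 CPM at day 7 and 10.8, 4.93 and 5.83 CPM at day 1, against 23.4 CPM in the control. Kcnq1 and Kcnq5 contribute to the slow current that opens at negative voltages in arterial muscle. Kcnq1 was at 11.4 and 9.84 CPM at day 7 and at 37.7, 16.3 and 13.0 CPM at day 1, against 41.8 CPM in the control. Kcnq5 showed a narrower range, 6.34 and 9.87 CPM at day 7 and 10.6, 6.01 and 9.44 CPM at day 1, against 13.3 CPM in the control. The log2 fold changes at day 7 were -1.98 ± 0.64 for Kcnq1 and -0.71 ± 0.50 for Kcnq5. With day 1 replicate 1 left out, Kcnq1 had -1.98 at day 7 and -1.52 at day 1 (edgeR adjusted p = 0.0237 and 0.048), and Kcnip3 had -2.12 at day 1 (edgeR adjusted p = 0.0333).

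Some voltage-gated members departed from that order. Kcna2, a subunit that combines with Kcna5, had 9.42 and 13.9 CPM at day 7 and 3.75, 3.36 and 5.15 CPM at day 1, against 11.8 CPM in the control. Its 3 day 1 libraries were below the control, at a log2 fold change of -1.52 ± 0.42 (edgeR adjusted p = 0.521), and the day 7 libraries lay on either side of it. Kcnh2, chosen after its values were seen because it was the third most abundant potassium pore gene of the control per length, had 142 and 127 CPM at day 7, close to the 157 CPM of the control. Its day 1 values were 141, 42.9 and 73.2 CPM.

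The long-lasting calcium channel Cacna1c is the main route of calcium into arterial muscle. It had 61.0 and 114 CPM at day 7 and 249, 97.6 and 150 CPM at day 1, against 273 CPM in the control. The 5 reopened arteries were all below the control, and the log2 fold change was -1.64 ± 0.62 at day 7 and -0.72 ± 0.58 at day 1 (edgeR adjusted p = 0.477 and 0.687). Cacna1c made up 50.0% and 57.3% of the summed FPKM of the 8 calcium pore genes at day 7 and 57.3%, 46.2% and 58.7% at day 1, against 63.4% in the control, and led them in every library. That sum itself was 9.74 and 15.8 FPKM at day 7 and 28.2, 16.5 and 19.8 FPKM at day 1, against 31.2 FPKM in the control.

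Low-voltage-activated channels open near the resting potential. Cacna1h had 12.0 and 22.1 CPM at day 7 and 38.0, 23.3 and 26.9 CPM at day 1, against 52.2 CPM in the control, a log2 fold change of -1.61 ± 0.47 at day 7 (edgeR adjusted p = 0.477). Cacna1g had 12.0 and 16.2 CPM at day 7 and 20.6, 21.0 and 15.4 CPM at day 1, against 26.4 CPM in the control. The third gene of this class, Cacna1i, ran the other way at low levels, with 0.698 and 2.52 CPM at day 7 and 1.12, 7.34 and 2.80 CPM at day 1, against 0.13 CPM in the control. Its day 1 log2 fold change was 4.82 ± 1.71 (edgeR adjusted p = 0.575), and it was higher in 5 of 5 libraries. Cacna1e, known mainly from neurons, had 0.798 and 0.881 CPM at day 7 and 0.897, 1.29 and 0.708 CPM at day 1, against 3.60 CPM in the control.

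Auxiliary calcium channel subunits carry the pore to the membrane and tune its gating. Cacna2d1 had 85.2 and 181 CPM at day 7 and 268, 115 and 164 CPM at day 1, against 241 CPM in the control. Cacnb2 had 17.6 and 16.4 CPM at day 7 and 58.2, 18.4 and 20.7 CPM at day 1, against 35.9 CPM in the control. Cacnb3 had 21.2 and 27.4 CPM at day 7 and 32.4, 19.6 and 16.9 CPM at day 1, against 25.8 CPM in the control, with libraries on either side of the control at both times. The FPKM ratio of Cacnb3 to Cacna1c was 1.72 and 1.19 at day 7 and 0.648, 1.00 and 0.559 at day 1, against 0.470 in the control. The ratio of Cacna2d1 to Cacna1c was 4.36 and 4.97 at day 7 and 3.37, 3.67 and 3.42 at day 1, against 2.76 in the control, so both ratios were above the control in every library.

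The cold and menthol receptor Trpm8 had the smallest unadjusted p among the channel genes for day 7 against control. It stood at 8.86 and 12.8 CPM at day 7 and at 44.1, 28.3 and 69.8 CPM at day 1, against 128 CPM in the control. The groups did not overlap, with day 7 lowest, day 1 between and the control highest. The log2 fold change was -3.56 ± 0.55 for day 7 against control (unadjusted p = 0.00083; edgeR adjusted p = 0.477) and -1.43 ± 0.49 for day 1 against control (edgeR adjusted p = 0.575). DESeq2 gave -3.58 with an adjusted p of 2.2e-05 at day 7, and edgeR without day 1 replicate 1 gave -3.57 with an adjusted p of 0.0264. Trpm8 was 2.30% and 3.68% of the summed FPKM of the 15 TRP genes at day 7 and 10.4%, 6.07% and 16.0% at day 1, against 29.1% in the control. The Trpm8 gene overlaps Hjurp in the RefSeq annotation, and the strand used in counting is not given in the labels.

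Trpm7 and Trpm4 were closer to the control than Trpm8. Trpm7, a channel fused to a kinase and widely expressed, had 88.6 and 139 CPM at day 7 and 222, 129 and 165 CPM at day 1, against 214 CPM in the control. Trpm4, a calcium-activated cation channel that depolarises the muscle cell, had 66.7 and 63.9 CPM at day 7 and 69.2, 44.5 and 56.9 CPM at day 1, against 74.1 CPM in the control. Its log2 fold change was -0.18 ± 0.32 at day 7 and -0.38 ± 0.30 at day 1. Scarcer genes included Trpm5, also calcium-activated, with 0.199 and 0.121 CPM at day 7 and 0.80, 0.370 and 1.09 CPM at day 1, against 2.08 CPM in the control. Trpv3, a warmth-sensitive channel best known from skin, had 1.3 and 1.52 CPM at day 7 and 1.66, 3.30 and 1.74 CPM at day 1, against 7.27 CPM in the control.

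Smooth muscle markers were themselves lower in every reopened artery but day 1 replicate 1, so the same genes were set against the summed markers of that library. Relative to the control, Kcnmb1 per smooth muscle marker was 0.515 and 0.678 at day 7 and 0.945, 0.998 and 0.887 at day 1. Cacna1c per marker was 0.372 and 0.677 at day 7 and 0.909, 1.54 and 1.54 at day 1. All day 7 libraries were below the control for both genes, and Cacna1c was above it in day 1 replicates 2 and 3. Kcnma1 per marker was 0.599 and 0.978 at day 7 and 0.937, 1.13 and 1.46 at day 1. Kcnj8 per marker was 0.811 and 0.538 at day 7 and 0.813 in day 1 replicate 1, and 1.56 and 1.5 in the other two day 1 libraries. Kcnma1 and Kcnj8 were thus below the control in both day 7 libraries, Kcnma1 only slightly in replicate 2, and above it in day 1 replicates 2 and 3.

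Other genes stayed lower than the control per marker. Kcna5 was at 0.289 and 0.116 of the control at day 7 and at 0.255, 0.212 and 0.424 at day 1. Kcnd3 was at 0.151 and 0.144 at day 7 and at 0.734, 0.913 and 0.574 at day 1. Trpm8 was at 0.115 and 0.162 at day 7 and at 0.344, 0.952 and 1.53 at day 1, so it was below the control per marker in both day 7 libraries but not in all day 1 libraries. With the geometric mean of the markers in place of their sum, an alternative chosen after seeing the data, Kcna5 was again below the control in 5 of 5 libraries. How much of the differences in CPM the markers account for was not tested.

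A second set of genes was low in the control and higher in at least 4 of the 5 reopened arteries. Trpv2, a cation channel known from macrophages, had 108 and 53.5 CPM at day 7 and 3.55, 97.1 and 51.7 CPM at day 1, against 1.36 CPM in the control. The log2 fold change was 5.89 ± 2.22 at day 7 and 5.21 ± 2.12 at day 1 (edgeR adjusted p = 0.477 and 0.578). Day 1 replicate 1 stood far below its group, and without it the values were 5.89 at day 7 and 5.77 at day 1, with edgeR adjusted p of 0.017 and 0.0165. Trpm2, an oxidant-activated channel of myeloid cells, had 7.92 and 12.0 CPM at day 7 and 1.06, 13.3 and 12.8 CPM at day 1, against 0.13 CPM in the control, and was higher in 5 of 5 libraries. Its log2 fold change was 6.22 ± 1.99 at day 7 and 6.09 ± 1.95 at day 1 (edgeR adjusted p = 0.477 and 0.564). Without day 1 replicate 1 the edgeR adjusted p was 0.00747 and 0.00724.

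**Figure D3:**
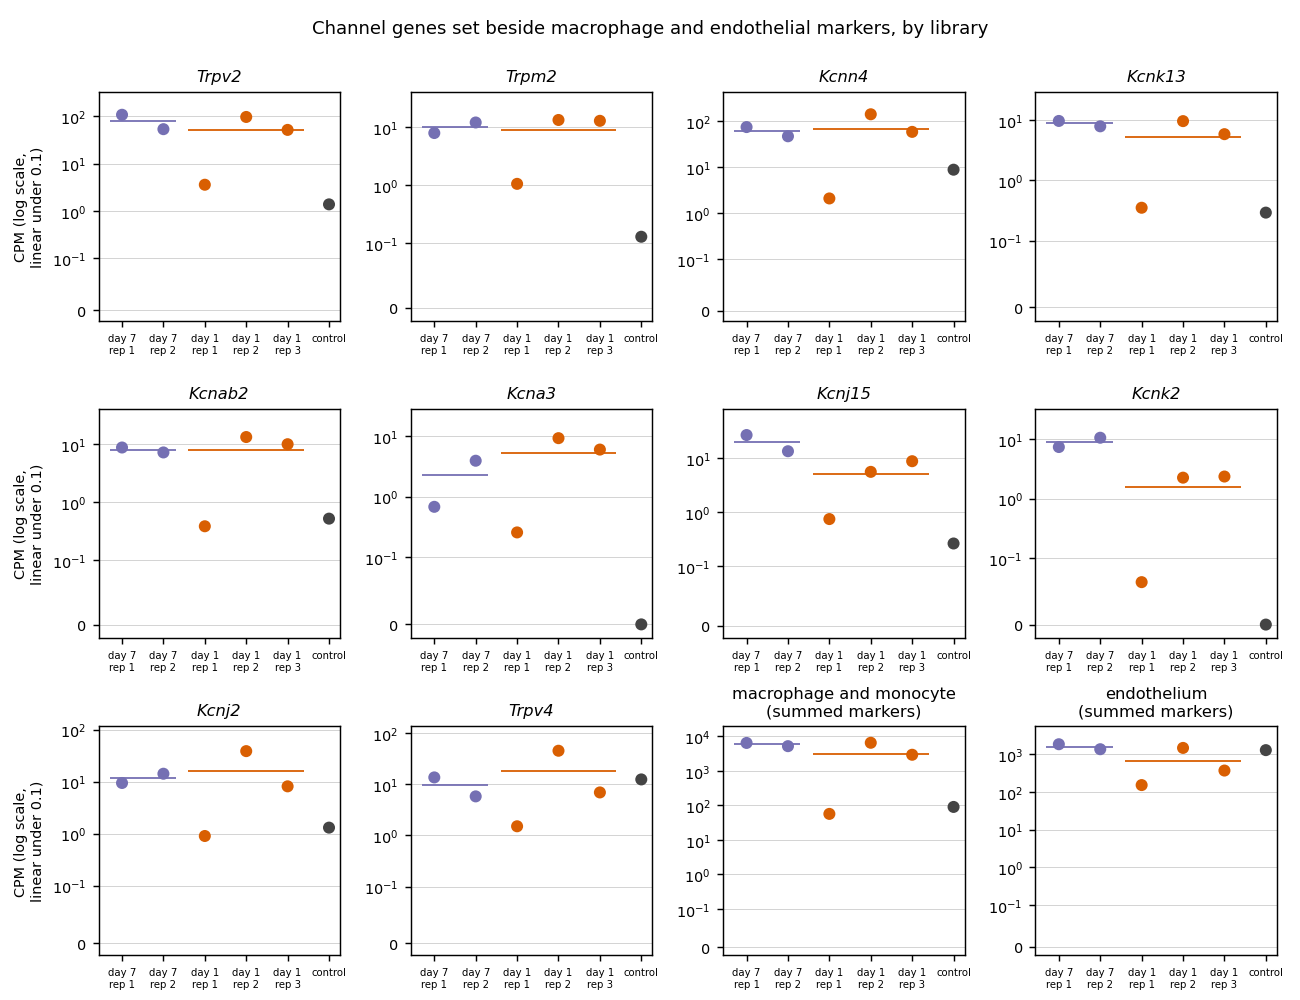
CPM on a log scale, linear under 0.1, in each library of 10 channel genes and of the summed macrophage and endothelial markers, with day 7, day 1 and the control from left to right and bars at group means. For Trpv2, Kcnn4, Kcnk13 and Kcnab2, day 1 replicate 1 lies near or below the control and the other 4 reopened arteries lie far above it, as they do in the macrophage panel.

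Kcnn4, the intermediate-conductance calcium-activated potassium channel of leukocytes, red cells and endothelium, had 73.3 and 46.3 CPM at day 7 and 2.08, 139 and 57.6 CPM at day 1, against 8.73 CPM in the control. Day 1 replicate 1 was below the control and the other 4 were above it. The log2 fold change was 2.77 ± 2.15 at day 7 and 2.92 ± 2.12 at day 1 (edgeR adjusted p = 0.596 and 0.659). Leaving day 1 replicate 1 out gave 2.77 at day 7 and 3.49 at day 1 (edgeR adjusted p = 0.0875 and 0.0486). Kcnk13, a leak channel known from microglia, had 9.77 and 7.96 CPM at day 7 and 0.352, 9.71 and 5.89 CPM at day 1, against 0.292 CPM in the control. Kcnab2, an auxiliary subunit with a reductase fold, had 8.68 and 7.14 CPM at day 7 and 0.384, 13.1 and 9.89 CPM at day 1, against 0.520 CPM in the control. In the fit without day 1 replicate 1, Kcnk13 had log2 fold changes of 4.91 at day 7 and 4.72 at day 1, with edgeR adjusted p of 0.0145 and 0.015, against 0.477 and 0.592 with all libraries. Kcnab2 had 3.92 and 4.46 there, with edgeR adjusted p of 0.0153 and 0.0108, against 0.494 and 0.598 with all libraries.

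Kcna3, the potassium channel that sustains calcium entry in lymphocytes, had 0.678 and 3.92 CPM at day 7 and 0.256, 9.25 and 5.99 CPM at day 1, with no count in the control. Set against the 3 counts that a count of 0 allows in the control library, its group mean was at least 23.6-fold higher at day 7 and at least 53.0-fold higher at day 1. These bounds are for group means and do not hold for each library. Kcnk2, a stretch- and lipid-gated leak channel, had 7.34 and 10.5 CPM at day 7 and 0.0640, 2.25 and 2.35 CPM at day 1, with no count in the control. Its group mean was at least 91.6-fold higher at day 7 and at least 16.0-fold higher at day 1. Day 1 replicate 1 alone lay under the control floor of 0.0974 CPM. Kcna6, a further voltage-gated pore gene with no count in the control, had 1.12 and 3.55 CPM at day 7 and 0, 0.863 and 0.644 CPM at day 1. The Kcna6 group means were at least 24.0-fold and at least 5.16-fold higher, though day 1 replicate 1 had no count, like the control. The edgeR adjusted p at day 7 was 0.477 for all 3 genes. With day 1 replicate 1 left out it was 0.00742 for Kcnk2, 0.0921 for Kcna3 and 0.0519 for Kcna6, and that of Kcnk2 at day 1 was 0.011.

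The inward rectifiers, which stabilise a negative resting voltage, held further examples. Kcnj15 had 26.6 and 13.3 CPM at day 7 and 0.736, 5.52 and 8.69 CPM at day 1, against 0.260 CPM in the control. All 5 libraries were above the control and both day 7 libraries above all day 1 libraries, with a day 7 log2 fold change of 6.24 ± 1.86 (edgeR adjusted p = 0.477). In the fit without day 1 replicate 1 the edgeR adjusted p was 0.0127 at day 7, and at day 1 the fold change was 4.75 with an adjusted p of 0.0229. Kcnj2, the classical strong inward rectifier, had 9.38 and 14.1 CPM at day 7 and 0.897, 38.4 and 8.08 CPM at day 1, against 1.3 CPM in the control. Kcnj14 had 2.19 and 2.85 CPM at day 7 and 3.94, 4.81 and 2.74 CPM at day 1, against 1.17 CPM in the control. It was higher in 5 of 5 libraries, day 1 replicate 1 included, at a day 1 log2 fold change of 1.71 ± 0.64 (edgeR adjusted p = 0.577).

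These genes can be read beside the markers of cells that arteries gain or lose. All 12 macrophage and monocyte markers were above the control in both day 7 libraries (42.9% of all genes tested were), and 3 of the 12 were above it in all 3 day 1 libraries (27.5% of all genes), none being at 0 in the control. Trpv2 amounted to 16.9 and 10.3 CPM per 1000 CPM of those markers at day 7 and to 63.0, 15.0 and 17.7 CPM at day 1, against 15.2 CPM in the control. Kcnk13 amounted to 1.52 and 1.54 CPM on that scale at day 7 and to 6.25, 1.5 and 2.02 CPM at day 1, against 3.26 CPM in the control. Kcnn4 amounted to 11.4 and 8.95 CPM at day 7 and to 36.9, 21.4 and 19.8 CPM at day 1, against 97.3 CPM in the control. Trpv2 thus lay on either side of the control per macrophage marker, Kcnk13 below it in all but day 1 replicate 1, and Kcnn4 below it in all 5 libraries. Kcnab2 had 1.35 and 1.38 CPM on that scale at day 7 and 6.81, 2.03 and 3.39 CPM at day 1, against 5.79 CPM in the control. Kcnj2 had 1.46 and 2.73 CPM at day 7 and 15.9, 5.93 and 2.77 CPM at day 1, against 14.5 CPM in the control. Both were below the control in every reopened artery but day 1 replicate 1. Trpm2 had 1.24 and 2.33 CPM at day 7 and 18.7, 2.05 and 4.41 CPM at day 1, against 1.45 CPM in the control. It was above the control in all but day 7 replicate 1. Kcnj15, on either side of the control, had 4.14 and 2.57 CPM at day 7. At day 1 it had 13.1, 0.851 and 2.98 CPM, against 2.89 CPM in the control. The ratios of the control and of day 1 replicate 1 rest on marker sums of only 89.7 and 56.4 CPM. The control also held only 9 counts of Kcnk13, 16 of Kcnab2 and 8 of Kcnj15, and Trpm2 was scarcer still there. Which side of the control a library lies on for these genes thus turns on few reads. The 7 T and NK cell markers summed to 18.0 and 16.0 CPM at day 7 and to 1.54, 18.3 and 15.5 CPM at day 1, against 0.779 CPM in the control, where 5 of the 7 were at 0. The 7 neutrophil markers summed to 43.6 and 32.1 CPM at day 7 and to 24.4, 92.1 and 111 CPM at day 1, against 2.95 CPM in the control, where 1 of the 7 was at 0. The part of leukocytes in the levels of these channel genes was not tested.

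Trpv4 and Kcnn3 are channels known from the endothelium, as is Kcnn4. The 12 endothelial markers summed to 1876 and 1382 CPM at day 7 and to 153, 1497 and 374 CPM at day 1, against 1306 CPM in the control. Trpv4, a flow- and stretch-responsive calcium channel of endothelial cells, had 13.5 and 5.77 CPM at day 7 and 1.5, 44.9 and 6.89 CPM at day 1, against 12.4 CPM in the control. Kcnn3, the small-conductance calcium-activated channel of endothelium, had 8.02 and 15.5 CPM at day 7 and 4.07, 7.06 and 3.48 CPM at day 1, against 4.29 CPM in the control. For Trpv4 the highest and the lowest library were both of day 1, so neither time was on 1 side of the control. Kcnk5 and Kcnk6, leak channels near the limit, stayed between 0.243 and 3.43 CPM in every library.

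Receptor-operated TRPC channels admit calcium and sodium after hormones act on the muscle cell. Trpc6 had 3.19 and 6.23 CPM at day 7 and 22.1, 25.6 and 20.0 CPM at day 1, against 5.84 CPM in the control. The 3 day 1 libraries were alike and above the control, and the day 7 libraries lay on either side of it. The day 1 log2 fold change was 1.95 ± 0.51, with an unadjusted p of 0.00953 and an edgeR adjusted p of 0.514, and DESeq2 gave 1.95 with an adjusted p of 0.0116. Per smooth muscle marker Trpc6 was 3.77, 18.9 and 9.56 times the control in the day 1 libraries. Trpc4 had 11.4 and 19.4 CPM at day 7 and 39.3, 3.08 and 12.8 CPM at day 1, against 5.84 CPM in the control. Trpc1 had 16.1 and 23.5 CPM at day 7 and 45.9, 13.8 and 26.3 CPM at day 1, against 28.0 CPM in the control. At day 1 both Trpc1 and Trpc4 varied with the library.

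Between the times, 17 of the 79 genes had both day 7 libraries below all 3 day 1 libraries and 11 had both above, against 16% and 17.2% of all genes tested. On the deposited FPKM scale there were 14 in each direction, against 12% lower and 21.7% higher among all genes. edgeR called 0 of the 79 genes, and at an unadjusted p under 0.05 there were 10 (12.7%, against 10.1% of all genes), 7 lower and 3 higher at day 7, with a background of 5.43% and 4.67%. Without day 1 replicate 1, 24 genes were lower and 16 higher, against 22.6% and 24% of all genes. The share under that p was near the background. Markers of blood cells moved between the times as well. The 4 erythroid markers summed to 527 and 42.6 CPM at day 7 and to 2330, 1282 and 1226 CPM at day 1, with 237 CPM in the control, where none was at 0. The 5 platelet markers summed to 58.1 and 32.2 CPM at day 7 and to 116, 205 and 413 CPM at day 1, with 139 CPM in the control, where 1 was at 0. In each list 4 markers had both day 7 libraries below all 3 day 1 libraries (16% of all genes did), and their part in the differences of channel genes was not tested. Kcnd2, a pore gene of the transient outward current, had 0.499 and 0.304 CPM at day 7 and 4.61, 3.45 and 4.22 CPM at day 1, with 1.14 CPM in the control. Its log2 fold change of day 7 over day 1 was -3.33 ± 0.54 (edgeR adjusted p = 0.402). Trpc6 differed by -2.26 ± 0.39 (edgeR adjusted p = 0.403) and Trpm8 by -2.13 ± 0.45 (edgeR adjusted p = 0.42).

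Cacna1d, a calcium channel that opens at more negative voltages than Cacna1c, had 3.41 and 3.89 CPM at day 7 and 49.5, 11.0 and 13.4 CPM at day 1, with 8.34 CPM in the control. The log2 fold change of day 7 over day 1 was -2.75 ± 0.80 (edgeR adjusted p = 0.459), and the highest value was that of day 1 replicate 1. Without that library it was -1.74 ± 0.33 (edgeR adjusted p = 0.146). Kcnab1, an auxiliary subunit of voltage-gated channels, had 12.3 and 12.5 CPM at day 7 and 18.3, 25.8 and 24.0 CPM at day 1, with 31.0 CPM in the control. It differed by -0.87 ± 0.25 between the times (edgeR adjusted p = 0.459) and by -1.32 ± 0.32 between day 7 and control (edgeR adjusted p = 0.477). Kcnd3, described above, had a log2 fold change of -2.09 ± 0.74 between the times (edgeR adjusted p = 0.476), and of -1.21 ± 0.42 without day 1 replicate 1 (edgeR adjusted p = 0.322).

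In the other direction, Kcne4, a small auxiliary subunit that damps several voltage-gated channels, had 27.2 and 34.2 CPM at day 7 and 16.4, 11.5 and 12.7 CPM at day 1, with 19.4 CPM in the control. The log2 fold change of day 7 over day 1 was 1.18 ± 0.26 (edgeR adjusted p = 0.42). Kcna2 differed by 1.51 ± 0.35 and Kcnn3 by 1.27 ± 0.47 (edgeR adjusted p = 0.423 and 0.484). Kcng2, a modifier of other voltage-gated pores that forms no channel alone, had 3.13 and 2.16 CPM at day 7 and 0, 0.647 and 0.386 CPM at day 1, with 0.195 CPM in the control. DESeq2 called 6 of the 79 genes between the times, against 3.25% of all genes, namely Kcnd2, Trpc6, Trpm8 and Cacna1d as lower and Kcne4 and Kcna2 as higher at day 7. edgeR without day 1 replicate 1 called 0 of the 79 genes here and 0% of all genes.

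**Figure D4:**
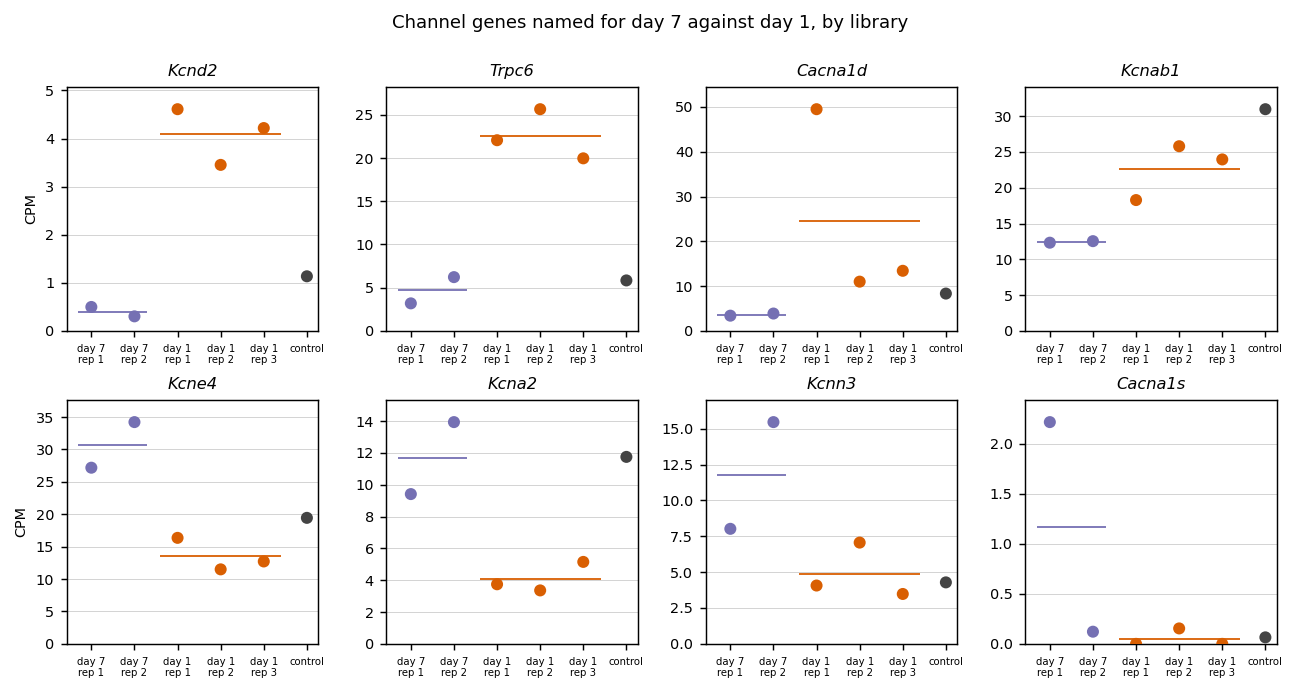
CPM in each library, on axes that start at 0, for 8 genes named in the comparison of day 7 with day 1, with the control at the right and bars at group means. The 3 day 1 points of Kcnd2 and Trpc6 lie close together above both day 7 points and the control, while the Cacna1s bar at day 7 rests on replicate 1.

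Cacna1s and Cacng1, the pore and a companion subunit of the skeletal muscle calcium channel, were listed among the genes higher at day 7, and both rested on 1 library. Cacna1s had 2.21 CPM in day 7 replicate 1 and 0.121 CPM in replicate 2, 0, 0.154 and 0 CPM at day 1 and 0.0649 CPM in the control. Cacng1 had 1.58 CPM in day 7 replicate 1 and no count in replicate 2, with 0, 0.0617 and 0 CPM at day 1 and no count in the control. The 10 skeletal muscle markers summed to 189 and 60.5 CPM at day 7 and to 118, 30.6 and 31.3 CPM at day 1, against 99.8 CPM in the control, where 1 of the 10 was at 0. Myh1, a myosin of fast skeletal fibres, was picked from those markers with the data in view. It stood at 52.1 CPM in day 7 replicate 1 and between 0.0640 and 1.46 CPM in the other 5 libraries. Ckm was instead highest in the control, at 40.2 CPM against 20.4 CPM in day 7 replicate 1. Acta1 was highest in day 1 replicate 1, at 78.1 CPM against 47.6 CPM in day 7 replicate 1. The remaining markers of the list were highest in day 7 replicate 1. The part of neighbouring skeletal muscle in the values of day 7 replicate 1 was not tested.

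The mix within each channel class was read per gene length, as shares of summed FPKM. The 15 TRP genes summed to 92.0 and 82.1 FPKM at day 7 and to 82.1, 109 and 101 FPKM at day 1, against 94.8 FPKM in the control. Trpv2 was 45.0% and 24.8% of that sum at day 7 and 1.35%, 33.5% and 19.0% at day 1, against 0.50% in the control. Trpm7, which led with 30.8% in the control, was 14.5% and 25.2% at day 7 and 33.1%, 17.5% and 23.9% at day 1. The 38 potassium pore genes summed to 181 and 154 FPKM at day 7 and to 154, 164 and 144 FPKM at day 1, against 220 FPKM in the control. Kcnn4 was 19.1% and 14.1% of that sum at day 7 and 0.521%, 39.0% and 18.3% at day 1, against 1.70% in the control. Kcnk3 was 13.7% and 11.2% at day 7 and 15.9%, 7.48% and 13.3% at day 1, against 24.2% in the control. Kcnj8 was 15.4% and 12.2% at day 7 and 24.6%, 12.3% and 20.6% at day 1, against 23.5% in the control. A share depends on the other genes of its class, so one can differ with no difference in the gene itself.

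**Figure D5:**
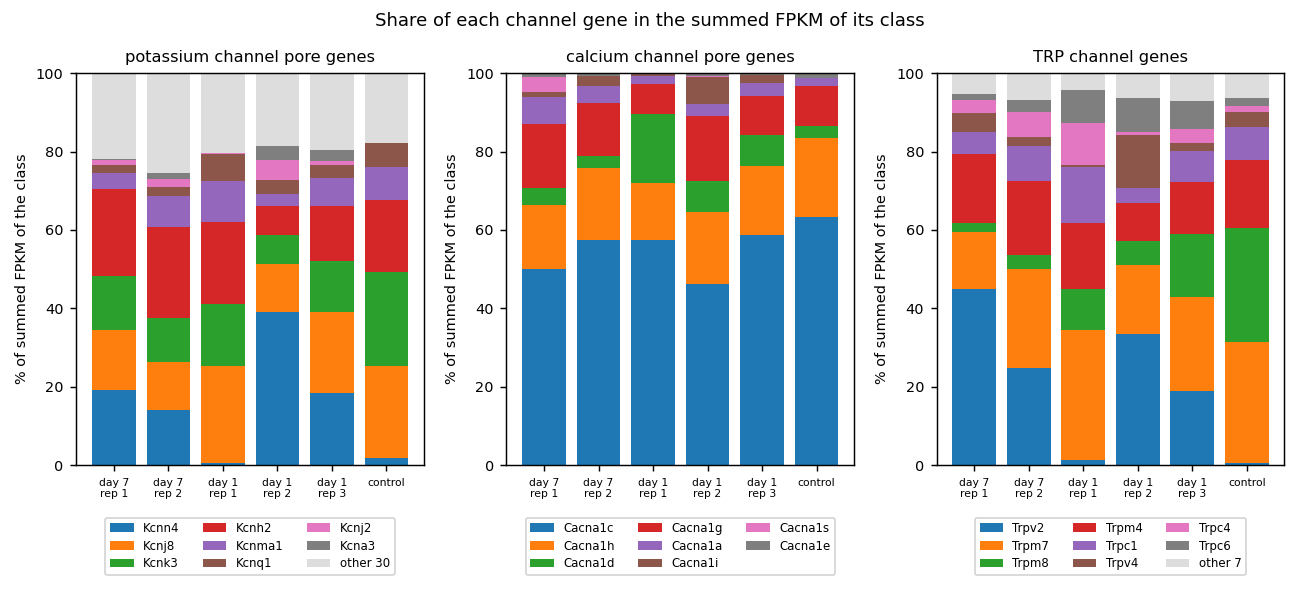
Stacked bars give the percent of the summed FPKM of each class held by its leading genes in each library, with the remaining genes in grey; libraries of day 7, day 1 and the control run from left to right. The Trpv2 and Kcnn4 segments are wide in the day 7 libraries and in day 1 replicates 2 and 3 and thin in day 1 replicate 1 and the control, and Cacna1c fills 46.2% to 63.4% of the calcium class.

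By family, the voltage-gated potassium pores had 11 of 20 described genes lower and 8 higher in both day 7 libraries, with a median log2 fold change of -0.47. The calcium pores had 6 of 8 lower and 2 higher, with a median of -1.05, and the TRPM genes had 5 of 6 lower and 1 higher, with a median of -0.96. The inward rectifiers had 3 of 4 higher and 1 lower, with a median of 2.14, and the leak channels had 6 of 9 higher and 1 lower, with a median of 1.40. The calcium auxiliary subunits had 5 of 9 lower and 1 higher. Over all genes tested the median was 0.09, with 36.2% lower and 42.9% higher.

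Of a list of 61 genes that work with these channels (calcium pumps and stores, sulphonylurea receptors and channel regulators among them), 58 were in the table and 55 were tested. edgeR called 0 in each of the 3 comparisons, and at an unadjusted p under 0.05 there were 6 for day 7 against control (1 higher, 5 lower), 4 for day 1 against control (2 in each direction) and 8 for day 7 against day 1 (5 higher, 3 lower). The shares of all genes tested at that p were 10.1%, 8.66% and 10.1%. Abcc8, the other sulphonylurea receptor, had 0.938 and 1.06 CPM at day 7 and 6.08, 2.90 and 3.28 CPM at day 1, against 8.44 CPM in the control, a day 7 log2 fold change of -3.07 ± 0.62 (edgeR adjusted p = 0.477). Rem1, a small GTPase that inhibits calcium channels, had 8.92 and 8.56 CPM at day 7 and 2.95, 3.92 and 3.22 CPM at day 1, against 1.98 CPM in the control, a day 7 log2 fold change of 2.14 ± 0.51 (edgeR adjusted p = 0.477). Camk2g, a calcium-activated kinase, had 5.03 and 8.35 CPM at day 7 and 4.77, 3.51 and 6.28 CPM at day 1, against 19.3 CPM in the control. Atp2b1, the plasma membrane calcium pump, had 101 and 108 CPM at day 7 and 124, 309 and 156 CPM at day 1, against 62.8 CPM in the control. Lrrc55, an auxiliary subunit of the large-conductance potassium channel, stayed under 1 CPM in every library.

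Of the 79 genes, 48 overlap another annotated gene in RefSeq and 15 overlap a protein-coding one. Those 15 include Trpm8, Kcnmb1, Cacna1c, Kcnd2 and Cacnb3, and also Trpv2, Kcnk2 and Kcnab2 of the genes higher than in the control. Without the strand of counting, reads of such partners cannot be told apart. The floors of 3 counts used for genes with no count in the control cover counting error only.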

How the data were processed

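Gene-level read counts and FPKM values were deposited by the authors for each of the 6 libraries. The submitters' processing notes name StringTie 1.3.1, HISAT2, Bowtie2 2.2.8 and fastp 0.18.0 without their roles. The genome build, annotation and strand of counting: not given in the sources used here. The deposited counts divided by the FPKM implied 1 length per gene in every library (12848 genes checked), so both tables come from the same counting.

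CPM are counts over TMM-normalised library totals (totals of 30078022 to 47240013). Genes were tested in edgeR 4.0.16 (R 4.3.3; filterByExpr, glmQLFit with robust estimation) in 1 fit with 3 group means and 3 residual degrees of freedom. The control is 1 library and was assumed to vary like the reopened arteries. p-values were adjusted by Benjamini-Hochberg over all 15860 genes tested at a threshold of 0.05. DESeq2 1.42.0, limma 3.58.1, other filters and scalings, FPKM with pseudocounts of 1 and 0.1, and each library left out were tried as alternatives. The steps were tested on simulated counts with the same dispersion for every gene. That does not show how they perform at the spread of these libraries.

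Genes were named by a rule: the 6 per direction with the smallest unadjusted p in each comparison, and a fixed set of 39 genes known from vessels or leukocytes. A few genes it picks are not reported here, in the text or by name in the figures, and stay in the counts. The members and lists were chosen with earlier results of these data known. Sequences and overlaps come from RefSeq (GRCr8), in which all 143 symbols were found. Day 1 and day 7 replicate numbers were taken from the sample titles, and a number does not pair arteries. The deposited column names carry other numbers for the day 7 libraries.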

Additional observations from a re-analysis of the deposited data

Results flagged for a closer look

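For 4 channel genes all 3 day 1 libraries lay on one side of the control and both day 7 libraries on the other. The share of all genes with this pattern was not counted, so the number cannot be read as particular to channel genes. The pattern also rests on 1 control library. None of the 4 passed against the control at either time in edgeR's 6-library fit, so opposite effects were not shown. The difference between day 7 and day 1 was tested in edgeR's 6-library fit and none of the 4 passed. Cacna1d differed by -2.75 on the log2 scale between day 7 and day 1 (edgeR adjusted p = 0.459), lying below the control at day 7 and above it at day 1. Without day 1 replicate 1 the difference was -1.74 (edgeR adjusted p = 0.146). Kcnd2 differed by -3.33 in the same way (edgeR adjusted p = 0.402). Kcne4 differed by 1.18 (edgeR adjusted p = 0.42), lying above the control at day 7 and below it at day 1. Kcnt2, a sodium-activated potassium channel gene chosen after its values were seen, differed by -0.86 (edgeR adjusted p = 0.507), with 3.51 and 2.52 CPM at day 7 and 6.18, 5.03 and 5.18 CPM at day 1, against 4.94 CPM in the control. Its day 1 log2 fold change against the control was 0.15 ± 0.46 (edgeR adjusted p = 0.927).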

How the results depend on the processing

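Counts of channel genes called were 0 in edgeR in all 3 comparisons, also with median-of-ratios factors, other count filters, limma-voom and limma on FPKM. DESeq2 called 12 for day 7 against control, 10 for day 1 against control and 6 for day 7 against day 1. Leaving out each reopened artery in turn gave 0 to 10, 0 to 14 and 0 to 0; the 10 and the 14 came without day 1 replicate 1. The cause of these gaps was not tested. Genes whose libraries did not overlap numbered 28 between the times, against 17.2% higher and 16% lower of all genes. With a library left out they numbered 37 to 45, the 45 without day 7 replicate 2, where fewer libraries are compared. Without day 1 replicate 1 the shares of all genes were 24% higher and 22.6% lower. For the other libraries they were not counted, so the 45 has no background to be read against. The alternatives for these counts were chosen after seeing the data. With the replicate number as a block, 0 of the channel genes were called between day 7 and day 1. The deviations of same-numbered libraries correlated at -0.0617 and -0.0715. Differently numbered libraries mirror these values by construction, so the values do not test pairing, and the numbers do not pair arteries. Of 133 fold changes of named genes, 26 changed sign under some alternative, none of them among the 94 that were at least 1 SE from 0. The number of genes described was 92 at 0.5 CPM, 73 at 2 CPM and 80 with plain totals. With 1 control library and 3 residual degrees of freedom, the control's own spread was not measured, and genes near 1 CPM rest on few counts.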
